A study of Mus musculus with 4 samples.

Results

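The nuclear-encoded subunits of the respiratory chain and of ATP synthase were examined in K7M2, a mouse osteosarcoma cell line known for spreading to the lung. A list of 50 genes was grouped by complex, with Nduf genes as complex I, Uqcr genes and Cyc1 as complex III, Cox genes as complex IV and Atp5 genes as complex V. Cycs, cytochrome c, was kept apart as the electron carrier between complexes III and IV. Each gene was represented by its probe set with the highest mean log2 level over the arrays, and 49 of the 50 were measured, out of 18193 named genes. They were 23 genes of complex I, 6 of complex III, 9 of complex IV and 10 of complex V, and Cycs. Cox7b was not analysed here.

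Oxidative phosphorylation runs through these complexes. Complex I takes electrons from NADH, complex III passes them from coenzyme Q to cytochrome c, complex IV hands them to oxygen, and complex V uses the proton gradient to make ATP. Most subunits are encoded in the nucleus and imported, and a few core subunits are encoded in mitochondrial DNA. Tumour cells differ in how far they rely on this system or on glycolysis, and the series title names cellular metabolism.

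Gene expression was compared on one-colour Affymetrix arrays. One array came from K7M2 cells over-expressing GFP, and 3 arrays, replicates 1 to 3, came from K7M2 cells over-expressing ezrinT567A-GFP, an ezrin whose C-terminal regulatory threonine is replaced by alanine, fused to GFP. All cells were the same line, kept in DMEM with fetal bovine serum, and all carried GFP in some form. The labels do not say whether the replicates were separate cultures, nor whether the cells were clones or pools, and they name no promoter for the transgene. P-values therefore measure only the spread between these arrays, and they take the spread of the GFP group from the other 3. An exact permutation test of 1 array against 3 cannot go below p = 0.25. Values are log2 expression after RMA, differences are the ezrinT567A-GFP mean minus GFP on that scale, and levels of different genes on such arrays are not comparable.

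Across the arrays, medians lay between 3.85 and 3.89. Hybridization spike-in probe sets averaged 9.09 in GFP and between 9.86 and 10.9 in ezrinT567A-GFP, and 18S rRNA probe sets averaged 9.09 in GFP and between 7.65 and 11.3, highest in replicate 2. Of the osteoblast lineage markers measured, Col1a1 (11.31 in GFP) and Col1a2 (12.28) were bright, Sp7 was at 5.05, and Alpl (3.63) and Ibsp (2.78) were dim, where the lower quartile of the GFP array was 2.57. Leukocyte, endothelial and muscle markers were dim, with list medians between 2.34 and 3.70 on every array. Epithelial markers lay below GFP on all 3 arrays for 4 of 4 genes, against 25.6% of all genes. Their list median was 6.10 in GFP and 4.26 to 4.79 in ezrinT567A-GFP. Cdh1 was dim, at 4.21 in GFP, and the Krt14 probe sets ranged from -2.80 to 0.08. The part of these markers in the values below was not tested. In bulk RNA, fewer cells of a type and less RNA per cell cannot be told apart.

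The members spread around no difference and stayed within a narrow range. Of the 49 genes, 24 had a mean above GFP, against 56.1% of all genes, and 25 a mean below, with differences from -0.43 (Ndufa4) to 0.34 (Ndufa2) and a median of -0.0002, against a median of 0.03 over all genes tested. None was 2-fold apart, where 1.68% of all genes were. Differences over 0.3 in size were found in 6 members (12.2%), against 25.2% of all genes. Of the 49 members, 48 lay above the median level of all genes, and among genes above that level the share was 35.14%. The shares of all genes, here and below, include the dimmer genes. With limma, 0 members passed an adjusted p of 0.05, as did 0.0% of all genes, and the lowest adjusted p among members was 0.285. At an unadjusted p under 0.05 there were 4 members (8.16%), 1 higher and 3 lower, against 14.0% of all genes, 7.46% higher and 6.5% lower. Among genes above the median level, 20.03% had such a p. All 3 ezrinT567A-GFP arrays lay above the GFP array for 19 members (38.8%) and below it for 14 (28.6%). The shares over all genes were 32.5% and 25.6%, and those over genes above the median level 36.95% and 29.55%. The remaining 16 members overlapped with GFP. The median SD of a member over the 3 ezrinT567A-GFP arrays was 0.10, and that of all genes 0.13.

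**Figure D1:**
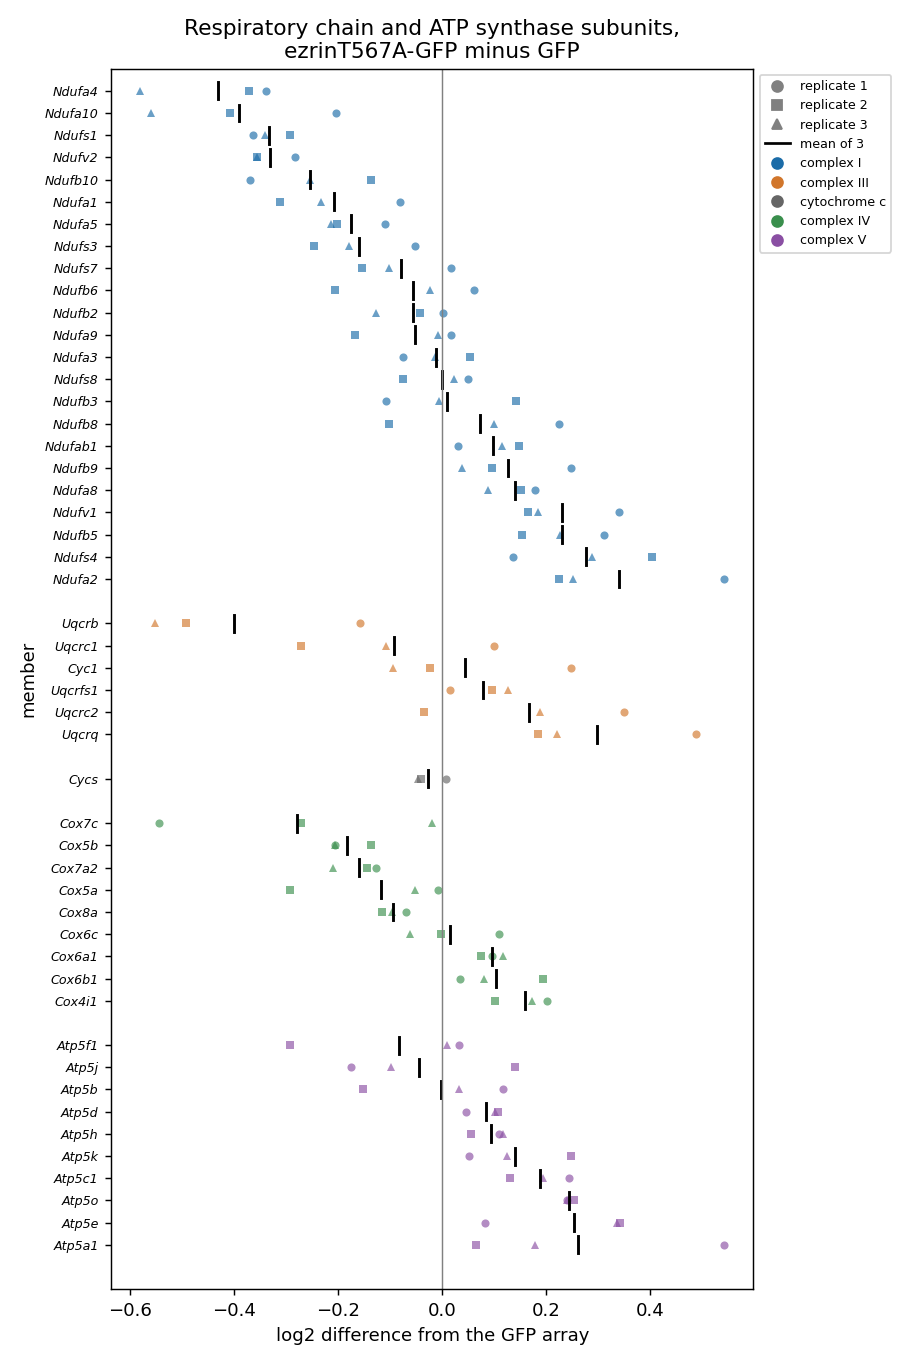
Log2 difference of each measured member from the single GFP array (horizontal axis), by complex; symbols are the 3 ezrinT567A-GFP replicates and black ticks their mean. Complex I spans the whole range from -0.43 to 0.34, while 7 of the 10 complex V genes have all 3 arrays above 0 and none has all 3 below.

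Complex I members lay on both sides of GFP. A limma unadjusted p under 0.05 was found for 3 of them (13.0%), against 14.0% of all genes. All 3 were lower, where 6.5% of all genes had such a p and were lower. Of its 23 members 7 had all 3 arrays above GFP (30.4%, against 32.5% of all genes), 8 had all 3 below (34.8%, against 25.6%) and 8 overlapped. The median was -0.05, which turned to 0.047 over the 19 genes with a plain _at probe set and to 0.0099 with the mean of probe sets, and was -0.017 after quantile normalization. The 6 core members, which carry the redox centres and the coenzyme Q site, had a median of -0.12, and 5 of the 6 had a mean below GFP, Ndufs8 among them at a difference that rounds to 0.00. The 17 accessory members, which surround the core, had a median of -0.01.

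Ndufv2, an iron-sulfur core subunit of the arm that takes in electrons from NADH, was 10.28 in GFP and 10.00, 9.92 and 9.92 in replicates 1, 2 and 3. All 3 arrays lay below GFP and close together, and the difference was -0.33 (SE 0.09, limma adjusted p = 0.285). Ndufs1, the largest iron-sulfur subunit of the same arm, was 9.40 in GFP and 9.04, 9.11 and 9.06, again without overlap, a difference of -0.33 (SE 0.10, limma adjusted p = 0.298). Their partner Ndufv1, which binds the flavin and NADH, lay on the other side with all 3 arrays above GFP, from 9.70 to a mean of 9.93 ± 0.10 (SD, n = 3). On these arrays the 3 neighbouring subunits of the arm did not share a direction, and none passed the adjusted test (limma adjusted p = 0.462 for Ndufv1).

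Ndufa4 had the lowest difference of all members. It was 10.65 in GFP and 10.31, 10.28 and 10.07 in replicates 1, 2 and 3, a difference of -0.43 (SE 0.13, limma adjusted p = 0.305), with every array below GFP. The protein was first assigned to complex I, as its name says, and later biochemical work placed it with complex IV. Ndufa10, an accessory subunit of the membrane arm, was 10.19 in GFP and 9.99, 9.79 and 9.63, a difference of -0.39 (SE 0.17, limma adjusted p = 0.401). Its 3 arrays were below GFP but less even than those of Ndufv2, with an SD of 0.18 against 0.04.

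Beside Ndufv1, the highest differences in complex I were those of 3 accessory subunits. Ndufa2 was at 0.34 (SE 0.16), from 10.23 in GFP to 10.77, 10.46 and 10.48, with replicate 1 the highest. Ndufs4, a subunit whose loss in mice gives a Leigh-like disease, was at 0.28 (SE 0.14), and Ndufb5, of the membrane arm, at 0.23 (SE 0.11). None of these 3 reached an unadjusted p of 0.05. Ndufs8, an iron-sulfur core subunit, was 11.22 in GFP and 11.27, 11.15 and 11.25, with GFP inside the range of the other arrays, and its 95% interval ran from -0.24 to 0.24. Probe sets of one gene disagreed in sign for Ndufa3 (-0.13 to 0.55), Ndufab1 (-0.43 to 0.27), Ndufb2 (-0.06 to 0.12), Ndufb6 (-0.06 to 0.16) and Ndufs8 (-0.06 to 0.12).

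Complex III showed no common direction. Of 6 members, 2 had all 3 arrays above GFP and 1 had all 3 below, against 32.5% and 25.6% of all genes, and 3 overlapped. The median was 0.06 with array medians of 0.17, -0.03 and 0.02 in replicates 1, 2 and 3. Without replicate 1 the median was 0.0094. Uqcrb, a small subunit at the coenzyme Q site, was 12.32 in GFP and 12.17, 11.83 and 11.77, a difference of -0.40 (SE 0.18, limma adjusted p = 0.424). Every array was below GFP, replicate 1 least so. Uqcrq, another small subunit, went the other way, from 9.70 to 10.19, 9.88 and 9.92, a difference of 0.30 (SE 0.16), although its probe sets ranged from -0.19 to 0.36. Both ends of that range came from dim probe sets, at 3.26 and 4.48 in GFP.

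The core protein Uqcrc2 overlapped with GFP, at 9.57 in GFP and 9.92, 9.54 and 9.76 in the replicates. Uqcrfs1, the Rieske iron-sulfur protein, was 10.15 in GFP and 10.17, 10.25 and 10.28, a difference of 0.08 (SE 0.09) with no overlap. Cyc1, cytochrome c1, overlapped with a difference of 0.04. Cytochrome c itself, Cycs, was 11.90 in GFP and 11.91, 11.86 and 11.85, a difference of -0.03 (SE 0.07) whose 95% interval ran from -0.22 to 0.16, and its probe sets ranged from -0.11 to 0.01. The Cycs probe set at -0.11 was dim, at 2.95 in GFP.

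**Figure D2:**
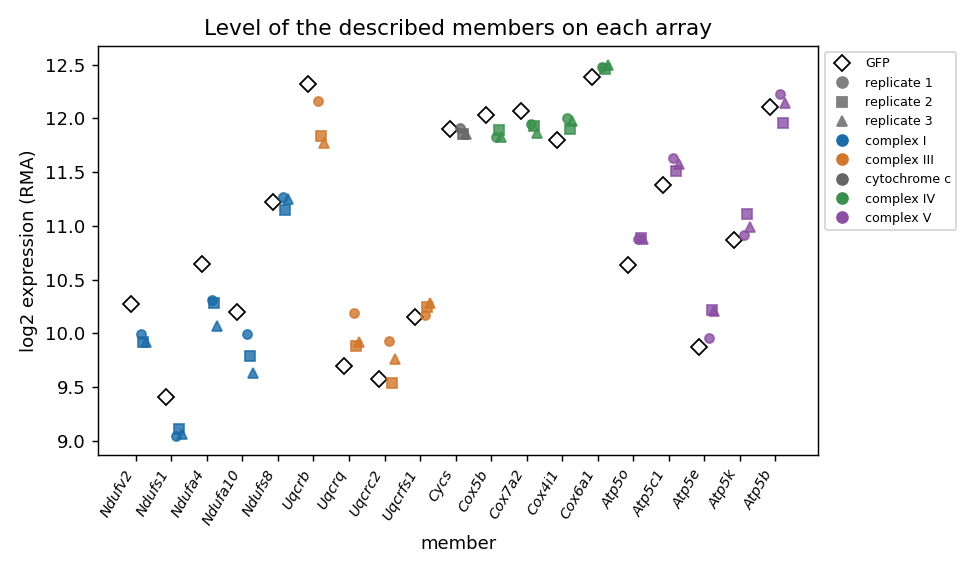
Log2 RMA level (vertical axis) of the 19 members described array by array; the open diamond is the single GFP array and the filled symbols the 3 ezrinT567A-GFP replicates, coloured by complex. Levels of different genes are not comparable, and within a gene the gap between the diamond and the other symbols can be set against the spread of the 3 replicates: the gap is clear for Ndufv2, Ndufs1 and Atp5o and absent for Ndufs8, Cycs and Atp5b.

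Complex IV members lay on both sides of GFP by small amounts. Of 9 measured, 3 had all 3 arrays above GFP and 5 had all 3 below, against 32.5% and 25.6% of all genes, and 1 overlapped. Among the 5 was Cox7c, which was dim and only -0.02 from GFP in replicate 3. The median was -0.09, or -0.044 after quantile normalization, and 0 had an unadjusted p under 0.05. Cox5b was 12.03 in GFP and 11.82, 11.89 and 11.82, a difference of -0.18 (SE 0.07, limma adjusted p = 0.386). Cox7a2, the widely expressed isoform of its subunit, was 12.07 in GFP and 11.95, 11.93 and 11.86, a difference of -0.16 (SE 0.07). Both lay below GFP on every array by a margin larger than their SD of 0.04.

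Cox4i1, the common isoform of a regulatory subunit, was 11.80 in GFP and 12.00, 11.91 and 11.98, a difference of 0.16 (SE 0.08, limma adjusted p = 0.450). Cox6a1 was 12.38 in GFP and 12.48, 12.46 and 12.50, a difference of 0.10 (SE 0.06), above GFP on all arrays. Probe sets disagreed in sign for Cox5b (-0.41 to 0.13), Cox6a1 (-0.02 to 0.10), Cox6c (-0.01 to 0.02) and Cox7a2 (-0.16 to 0.02). Both ends of the Cox5b range came from dim probe sets, at 3.87 and 2.47 in GFP. Its brighter probe sets were at -0.18, -0.19, -0.24 and -0.29. Cox7c was dim on both of its probe sets, at 3.96 in GFP and 3.42, 3.69 and 3.94 on the brighter one, the only member below the median level of all genes. Without it, a choice made after seeing the data, the median of complex IV was -0.04 over 8 genes, and without replicate 2 it was -0.029 over all 9.

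Most measured complex V members lay above GFP. Of its 10 members 7 had all 3 arrays above GFP and 0 had all 3 below, against 32.5% and 25.6% of all genes, and the median was 0.12, with array medians of 0.11 ± 0.01 (SD, n = 3). All 3 array medians are differences from the same GFP array, so this SD leaves out the variation of that array. Over the 7 genes with a plain _at probe set the median was 0.059. The differences were small, at most 0.26, and 0 members passed limma's test over all genes. The 5 subunits of the catalytic F1 head and its central stalk had a median of 0.19, and the 5 of the peripheral stalk and membrane part a median of 0.09.

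Atp5o, the peripheral stalk subunit that holds the head in place, had the smallest p of the complex. It was 10.64 in GFP and 10.88, 10.89 and 10.88, with the 3 replicates almost equal (SD 0.01), and the difference was 0.25 (SE 0.08, limma adjusted p = 0.310). A further Atp5o probe set gave 0.0026. Atp5c1, the rotating gamma subunit, was 11.38 in GFP and 11.63, 11.51 and 11.58, a difference of 0.19 (SE 0.08, limma adjusted p = 0.412). Atp5e, the epsilon subunit beside it, was 9.87 in GFP and 9.95, 10.21 and 10.21, a difference of 0.25 (SE 0.14), with replicate 1 nearest to GFP.

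Atp5k, a membrane subunit where synthase dimers meet, was 10.87 in GFP and 10.92, 11.11 and 10.99, a difference of 0.14 (SE 0.11). The catalytic beta subunit Atp5b was 12.11 in GFP and 12.23, 11.96 and 12.14, with a difference of -0.0009 (SE 0.13) and GFP in the middle of the arrays. Its partner in the catalytic ring, Atp5a1, had all 3 arrays above GFP and the largest difference of the complex, 0.26, with an SE of 0.21 that nearly equals it and replicate 1 at 11.41 against 10.93 and 11.04. Probe sets disagreed in sign for Atp5d (-0.17 to 0.09).

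**Figure D3:**
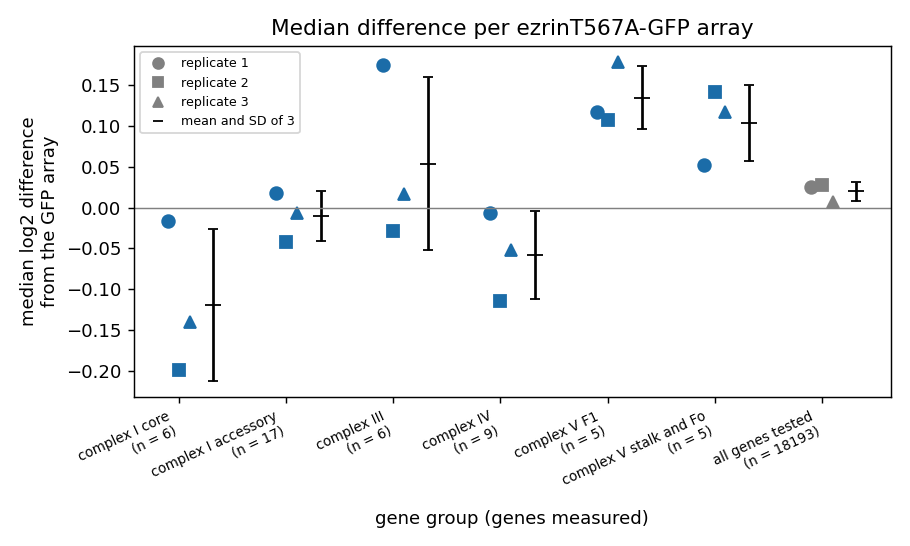
Median log2 difference from the GFP array (vertical axis) over the genes of each group, for each ezrinT567A-GFP replicate (symbols), with the mean and SD of the 3 (black). The 3 share the single GFP array, whose own variation the SD leaves out. Both parts of complex V lie above 0 on all 3 arrays, the core of complex I lies below 0 on all 3, and complex III spans 0.

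The upstream sequences of the members with the lowest and the highest differences are shown because nuclear respiratory genes are known to share binding sites of NRF1, GABP and YY1. Windows of 250 bases before and 50 after the start were taken from RefSeq (GRCm38.p6) and matched by gene ID to 39 of the members. GCGC, any base (N) and TGCGC in a row stood for NRF1, CCGGAAG for the ETS factors that include GABP, and AAGATGGC for YY1, each read on both strands. Only the 250 bases before the start are printed, 5′ to 3′ on the gene's strand, with matches in capitals. Of the 39, the 2 with the lowest differences were Ndufa4 (chr6:11907451-11907700) and Ndufa10 (chr1:92473759-92474008), and the 2 with the highest were Ndufs4 (chr13:114388095-114388344) and Atp5e (chr2:174464102-174464351), all on the minus strand.
Ndufa4: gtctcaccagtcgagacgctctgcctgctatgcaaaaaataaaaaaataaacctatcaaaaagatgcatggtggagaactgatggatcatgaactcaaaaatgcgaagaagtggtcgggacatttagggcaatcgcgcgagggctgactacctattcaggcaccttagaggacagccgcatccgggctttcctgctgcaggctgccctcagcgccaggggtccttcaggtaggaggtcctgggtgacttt
Ndufa10: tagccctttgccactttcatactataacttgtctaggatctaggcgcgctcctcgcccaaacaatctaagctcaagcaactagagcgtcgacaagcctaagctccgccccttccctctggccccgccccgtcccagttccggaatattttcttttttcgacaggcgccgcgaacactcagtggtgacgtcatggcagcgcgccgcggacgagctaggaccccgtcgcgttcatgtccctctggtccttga
Ndufs4: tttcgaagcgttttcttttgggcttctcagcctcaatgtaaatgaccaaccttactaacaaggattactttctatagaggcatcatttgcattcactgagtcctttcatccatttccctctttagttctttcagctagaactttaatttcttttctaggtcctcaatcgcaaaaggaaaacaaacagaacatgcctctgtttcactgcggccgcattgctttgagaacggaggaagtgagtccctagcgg
Atp5e: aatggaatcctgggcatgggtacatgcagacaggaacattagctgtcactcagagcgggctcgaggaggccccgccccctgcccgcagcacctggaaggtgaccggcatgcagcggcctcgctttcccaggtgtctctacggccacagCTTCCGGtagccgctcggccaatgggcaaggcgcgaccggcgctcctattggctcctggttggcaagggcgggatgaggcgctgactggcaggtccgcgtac

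Atp5e held 1 ETS match in this stretch, and Ndufa4, Ndufa10 and Ndufs4 held none of the letters searched; Ndufs4 had a YY1 match in the 50 bases after the start. Over the full windows of 300 bases, an NRF1 match was present in 8 of 39 members (20.5%) and 5.19% of all 27025 genes in the table. An ETS match was present in 10 members (25.6%, against 9.93% of all genes) and a YY1 match in 7 (17.9%, against 3.19%). Of the 8 members with an NRF1 match 6 had a mean above GFP and 2 below, with a median of 0.12, and of the 31 without one 10 were above and 21 below, with a median of -0.05. The ETS matches divided as 5 above and 5 below, and the YY1 matches as 2 above and 5 below. Any of the 3 motifs was present in 21 members, 10 above and 11 below GFP with a median of -0.0002, and in 16.4% of all genes. The 18 members without one included the 7 with the lowest differences among the 39, from Ndufa4 to Cox5b. They also included Ndufb5 (0.23) and Ndufv1 (0.23) near the upper end. Members without a window, such as Uqcrb (-0.40), Ndufs1 (-0.33) and Ndufa2 (0.34), are not covered. A match describes the letters in this window and is not a site shown to be bound, and these splits were made after the values were seen.

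The members' differences went along with those of other genes on the same chromosome. For every chromosome the median difference was taken over its other genes above the median level of all genes, which gave -0.34 for chromosome 1 (506 genes), -0.13 for chromosome 17 (433), 0.21 for chromosome 18 (219) and 0.24 for chromosome 8 (515). Members had the sign of their chromosome's median in 35 of 49 cases. By construction, a median has the sign of many of the genes behind it, and the same share was not taken over other genes. The count is therefore not shown to be particular to the members. Across the 49 members, which share the same 4 arrays and in part a chromosome, Pearson's r with the chromosome median was 0.63 and Spearman's rho 0.67, given as a description. With each replicate's own differences r was 0.68, 0.49 and 0.58, and without the 4 members of chromosome 1 it was 0.63 over 45 members.

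Ndufs1 (-0.33) and Ndufa10 (-0.39) both lie on chromosome 1, and relative to its median they were at 0.0041 and -0.05. Cox5b, on the same chromosome, was at -0.18, which is 0.15 above that median, and Ndufb3, also there, at 0.01 was 0.35 above it. All 5 members of chromosome 6, where the median was -0.07, had means below GFP, and Ndufa4 remained far from it at -0.36. Uqcrb stood likewise at -0.41 from the median of chromosome 13, and Ndufv2 at -0.20 from that of chromosome 17. Subtracting the chromosome medians, an alternative added after seeing the data, reduced the SD of the members' differences from 0.20 to 0.15. The median of complex V went from 0.12 to 0.06 and that of complex I from -0.05 to -0.01. Complex III went from 0.06 to 0.04, and complex IV moved little, from -0.09 to -0.08. The part of chromosome position in the single differences was not tested.

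**Figure D4:**
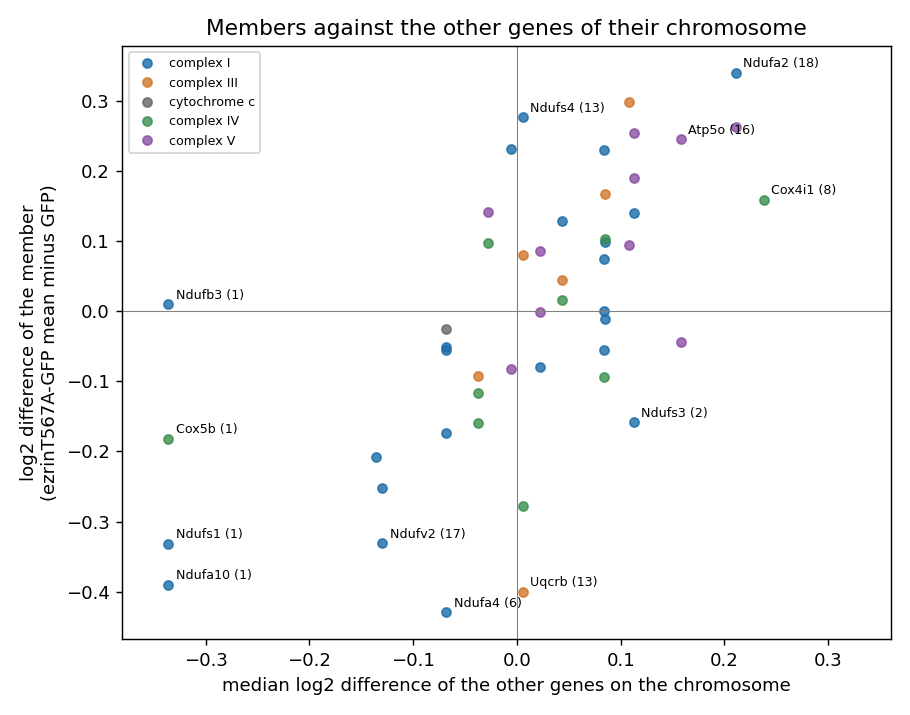
Log2 difference of each member (vertical axis) against the median difference of the other genes on its chromosome (horizontal axis), coloured by complex, with chromosome numbers in parentheses. Points rise from lower left to upper right (r = 0.63 over 49 members); Ndufa4 and Uqcrb lie lowest relative to their chromosome, by -0.36 and -0.41.

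The other genes of the pathway were taken from 9 lists. Subunits of complexes I, III, IV and V outside the member list (22 of 25 measured) split into 11 above and 11 below GFP, with a median of 0.01; limma passed 0 over all genes in every list. Atp5j2, a membrane subunit of ATP synthase, was the lowest of them, from 11.42 in GFP to 11.06, 10.88 and 11.00, a difference of -0.44 (SE 0.10, limma adjusted p = 0.266, probe sets -0.44 to -0.02), opposite to most of complex V. Ndufa7, an accessory subunit of complex I, was at -0.35 (SE 0.10), and all 5 of its probe sets were below 0. The 3 genes of the proton-carrying c ring, Atp5g1, Atp5g2 and Atp5g3, were at 0.02, 0.06 and 0.13.

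Complex II, which feeds electrons from succinate and takes part in the TCA cycle, had 3 of 4 genes below GFP on all 3 arrays, against 25.6% of all genes, and a median of -0.26. Its flavoprotein Sdha was 9.19 in GFP and 8.85, 8.75 and 8.84, a difference of -0.38 (SE 0.11, limma adjusted p = 0.288), and Sdhc, a membrane anchor on chromosome 1, was at -0.38 (SE 0.23). Sdhb overlapped at 0.03. Of 8 tissue isoforms of subunits, such as the muscle forms Cox6a2 and Cox7a1, 4 were above and 4 below GFP and 0 had an unadjusted p under 0.05. Cox6b2 (0.31, SE 0.31) and Cyct (-0.07, SE 0.11) had the smallest p. Both were dim in GFP, at 3.42 and 3.06, as were Cox4i2 (3.65), Cox7a1 (3.38) and Cox8b (3.94). Cox8c (5.36) and Ndufa4l2 (5.14) were somewhat brighter. Cox6a2 varied most between replicates, at 7.46, 6.87 and 6.28 against 6.83 in GFP.

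Assembly factors, which build the complexes without staying in them, lay on both sides of GFP. Of 36 measured, 22 had means above GFP and 14 below, where 56.1% of all genes were above; 4 were higher and 1 lower at an unadjusted p under 0.05, against 7.46% and 6.5% of all genes. Ndufaf3, which helps build the coenzyme Q arm of complex I, was 6.44 in GFP and 7.03, 6.99 and 7.02, a difference of 0.57 (SE 0.11, limma adjusted p = 0.232). Foxred1, another complex I factor, was at 0.32 (SE 0.16). Cox16, a factor in the assembly of complex IV, was 6.36 in GFP and 7.11, 7.24 and 7.37, a difference of 0.88 (SE 0.15, limma adjusted p = 0.218), but its probe sets ranged from -0.02 to 0.88. Cox20, a chaperone of a newly made core subunit of complex IV, lies on chromosome 1 and was 8.46 in GFP and 7.85, 7.75 and 7.88, a difference of -0.63 (SE 0.12, limma adjusted p = 0.231, probe sets -0.63 to 0.07).

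Among the complex III factors, Uqcc1 was at 0.53 (SE 0.19) and Uqcc2 at -0.23 (SE 0.09), and the probe sets of Uqcc1 ranged from -0.02 to 0.64. The complex V factors Tmem70 (-0.20, SE 0.11) and Atpaf2 (-0.14, SE 0.12) were below GFP on all 3 arrays. Coenzyme Q synthesis had 6 of 8 genes above GFP on all 3 arrays, against 32.5% of all genes, and a median of 0.24, with Coq6 at 0.53 (SE 0.19) and Coq4 at 0.44 (SE 0.20). At an unadjusted p under 0.05 there was 1 gene (12.5%), against 14.0% of all genes.

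Transcriptional regulators of these genes were divided. Of 12, 5 were above and 7 below GFP, where 56.1% of all genes were above. At an unadjusted p under 0.05, 1 was higher and 3 were lower, against 7.46% and 6.5% of all genes. Esrra, the nuclear receptor that drives many respiratory genes, was 7.21 in GFP and 7.82, 7.91 and 7.73, a difference of 0.61 (SE 0.13, limma adjusted p = 0.241). Tfb2m, which mitochondrial RNA polymerase needs to start transcription, was 8.83 in GFP and 8.18, 7.74 and 8.06, a difference of -0.84 (SE 0.21, limma adjusted p = 0.275), and it lies on chromosome 1. Nrf1 was at -0.01 (SE 0.12), with probe sets from -0.48 to 0.06, and Gabpa at -0.51 (SE 0.19, limma adjusted p = 0.368). Ppargc1a, a coactivator of mitochondrial biogenesis, was at -0.56 from a dim 3.51 in GFP, and its probe sets ranged from -0.56 to 0.36.

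**Figure D5:**
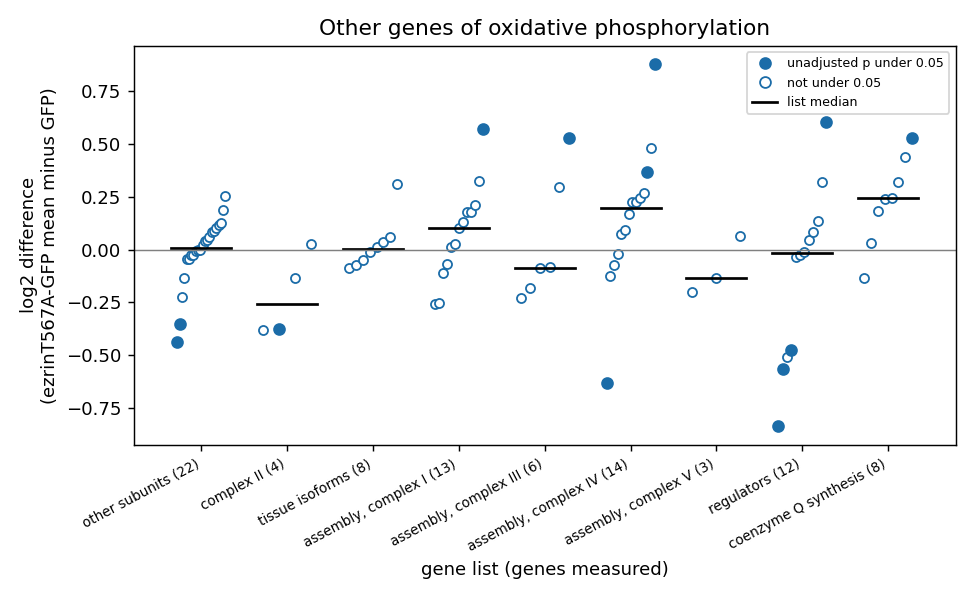
Log2 difference, ezrinT567A-GFP mean minus GFP (vertical axis), of each gene in the 9 other lists of oxidative phosphorylation; filled points had an unadjusted limma p under 0.05 and black lines are list medians. Coenzyme Q synthesis has the highest median (0.24) and complex II the lowest (-0.26), and no point passed the adjusted test.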

How the data were processed

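RNA of 4 samples was hybridised to one-colour Affymetrix arrays after one-cycle biotin labelling, per the labels' protocols. The authors deposited log2 values for each probe set, summarised with RMA per the submitters' processing notes, whose software version is not given in the sources used here. Normalization of this kind gives the arrays nearly the same distribution, so a shift in total RNA would not be seen. The log2 scale was read from the range, 1.18 to 13.7.

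Of 45101 probe sets, 34958 had 1 gene symbol, 932 several and 9211 were not listed in the platform annotation. Control probe sets (64) and those without 1 symbol were left out. Chromosomes came from a RefSeq gene table (GRCm38.p6). limma 3.58.1 in R 4.3.3 (lmFit, eBayes with a mean trend, Benjamini-Hochberg over 18193 genes, two-sided) was fitted with 2 residual degrees of freedom and a prior worth 2.23. SE is moderated. The scripts were tested on simulated data with 200 changed genes. There limma's adjusted test recovered 10.55% of 2-fold and 60.75% of 4-fold changes. A lack of calls therefore does not show that smaller differences are absent. Figures used matplotlib 3.10.9.

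In each complex the 4 members with the smallest p and the brightest were described array by array, with Cycs; the 2 genes with the smallest p were named from each other list. Genes named beyond this rule (among them Ndufa2, Ndufs4, Ndufb5, Ndufb3, Ndufv1, Cox7c, Atp5a1, Cox6a2, Nrf1, Gabpa and Ppargc1a) were chosen after their values were seen. Members and lists were chosen with earlier results of these data known.

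Alternatives were quantile normalization, median centring, the mean of probe sets, plain _at probe sets, no dim genes, other eBayes priors, moving Ndufa4 to complex IV and leaving out each replicate. Chromosome medians and leaving out Cox7c were added after seeing the data.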

Additional observations from a re-analysis of the deposited data

How the results depend on the processing

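No member passed limma's adjusted test under any of the 10 refits of all genes, where the lowest adjusted p of a member ran from 0.186 to 0.558. Over all genes limma called 36 genes with quantile-normalized arrays, 6 with centred arrays, 6 with averaged probe sets, 3 without dim genes and 9 with a robust prior, instead of 0. Leaving out each replicate gave 0 calls.

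The median of complex I turned to 0.047 with plain _at probe sets (19 genes) and to 0.0099 with the mean of probe sets, and was -0.017 after quantile normalization; that of complex IV was -0.039 without dim genes or without Cox7c. The median of complex V was 0.14 after quantile normalization, 0.10 after centring, 0.059 with plain _at probe sets (7 genes) and 0.058 relative to the chromosome. Leaving out each replicate gave -0.084 to -0.020 for complex I, 0.0094 to 0.085 for complex III, -0.105 to -0.029 for complex IV, 0.101 to 0.117 for complex V and -0.025 to 0.025 for all members. Moving Ndufa4 to complex IV kept both medians within the spread between arrays. The cause of these shifts was not tested.

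Other eBayes priors and leaving out dim genes do not alter the difference of a gene, so values under these settings could not change side. The mean of probe sets likewise leaves genes with a single probe set unchanged. With such values included, 352 of 360 values of 37 named genes kept their side of GFP. The exceptions were Atp5b (0.022 after quantile normalization, -0.060 to 0.075 leaving out each replicate, above 0 without replicate 2), Ndufs8 (0.016 after quantile normalization, 0.049 with the mean of probe sets, 0.125 with plain _at probe sets, -0.025 to 0.037 leaving out each replicate, above 0 without replicate 2), Cox7a2 (0.021) and Cycs (0.0071) with plain _at probe sets. No paired analysis was possible because the single GFP array carries no replicate number. With 4 arrays in all, precision is set by their number; signal over background was not analysed here.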

Other observations

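ND5, a core subunit of complex I encoded in mitochondrial DNA, belonged to no list. Among genes above the median level of all genes, it was the only one placed on mitochondrial DNA. It was 9.71 in GFP and 9.35, 9.21 and 9.03 in replicates 1, 2 and 3, below GFP on every array, a difference of -0.52 (SE 0.16, limma adjusted p = 0.305). Tfb2m and Tfb1m, which are factors of mitochondrial transcription and of the mitochondrial ribosome, were also below GFP on all 3 arrays, at -0.84 and -0.48 (SE 0.15 for Tfb1m). Tfb2m lies on chromosome 1 and Tfb1m on chromosome 17, whose medians were -0.34 and -0.13. Polrmt, the mitochondrial RNA polymerase, was above GFP on all 3 at 0.32 (SE 0.12). Tfam, which packages mitochondrial DNA, was above GFP on all 3 at 0.08 (SE 0.11), but its probe sets ranged from -0.09 to 0.08. This choice of genes was made with their values in view, and 0 of them passed limma's adjusted test.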
